A study of Mus musculus with 4 samples.

Results

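The genes described here are 30 genes of cell division, which act in the entry into mitosis, the spindle, the kinetochore, the separation of chromosomes and cytokinesis. They were taken by symbol from a fixed list, and all 30 were found among the 45232 gene rows of the count files. RNA was sequenced from GFP-positive LSK cells of the mouse, the lineage-negative, Kit-positive and Sca-1-positive fraction that holds blood stem cells and multipotent progenitors. Sorting was done from recipient mice 3 months after a graft of GFP-positive long-term haematopoietic stem cells (LT-HSCs). Grafts of the control group were labelled Scr and those of the other group miR-99 KD, a knockdown of a microRNA. Sorted cells of 2 mice made up each group, with 1 library per mouse, so both groups share the graft, the GFP label and the sort. The labels give neither the strain or age of the mice nor the construct; names pasted below the counts of both knockdown files begin with Zip99a, which the labels do not explain. The notes pasted in the file of miR-99 KD 2 also list a control, Scr-1, with 29793890 gene counts, a total that neither control library used here has (32350590 in Scr 1 and 28422748 in Scr 2). Mature microRNA is not measured here, and the rows of the hairpin genes Mir99a, Mir99b and Mir100 were listed at 0, so the knockdown has no check in these data. The comparison asks how the level of these RNAs in engrafted LSK cells differed with the knockdown.

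Cells enter mitosis when cyclin B binds and activates the kinase Cdk1, and they leave it when the anaphase-promoting complex (APC/C), a ubiquitin ligase, marks cyclin B and securin for destruction. Between these steps the spindle pulls on kinetochores, the protein plates built on centromeres, and a checkpoint delays anaphase until each is attached. Most of these genes are transcribed late in the cell cycle, through NF-Y bound at CCAAT boxes and the MuvB complexes bound at an element called CHR, and are held low in resting cells. Long-term stem cells divide rarely and their progeny divide often, so in LSK cells the RNA level of these genes follows the share of dividing cells as well as the level per cell. In bulk RNA fewer cells in mitosis and less RNA per cell cannot be told apart.

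miR-99a, miR-99b and miR-100 share 1 seed, the bases 2 to 8 that pair with a target, given in capitals. The sample titles say miR-99 without a letter, so they do not tell which of these was knocked down. The sequences are those of RefSeq.
miR-99a-5p: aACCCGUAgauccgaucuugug
miR-99b-5p: cACCCGUAgaaccgaccuugcg
miR-100-5p: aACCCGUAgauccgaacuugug
The 7 letters that pair with this seed, TACGGGT, were in the 3′ UTR (GENCODE M21) of 0 of the 30 mitosis genes, beside 1.4% of 12817 tested genes. The 6 letters ACGGGT, which pair with bases 2 to 7, were in 2 of the 30, or 6.67%, beside 6.91% of those genes. In both, Cdk1 and Nuf2, an A follows the match, and ACGGGTA was not counted over all genes. They are shown with the match in capitals.
Cdk1: gctttcctccACGGGTaggccacagg
Nuf2: gctcactaacACGGGTaccactagtt
A match describes the letters and is not evidence of binding.

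The mitosis genes were all well measured. The counts per gene and library ran from 719 for Cdc25c in miR-99 KD 1 to 17480 for Top2a in Scr 1, which puts the counting error of a value between 0.756% and 3.73%. This error covers counting only, since copies made by PCR are not independent molecules. It is smaller than the median spread between libraries of a group given below, but not smaller than the spread of every gene. Gene counts per library ran from 27295197 to 32350590, and the 30 genes took 0.584% and 0.626% of them in Scr 1 and 2 and 0.661% and 0.652% in knockdown 1 and 2. Levels are given as CPM, read counts scaled to a common library total. Each library's total was adjusted beforehand by TMM, edgeR's scaling between libraries. The CPM values therefore differ from a scaling by library totals alone, which is an alternative setting below. The summed level of the 30 genes was 5649 CPM (Scr 1), 6103 CPM (Scr 2), 6834 CPM (miR-99 KD 1) and 6704 CPM (miR-99 KD 2), with means of 5876 ± 321 CPM for the controls and 6769 ± 91.8 CPM for the knockdowns (± SD, n = 2). Both knockdown libraries lay above both control libraries in this sum.

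**Figure D1:**
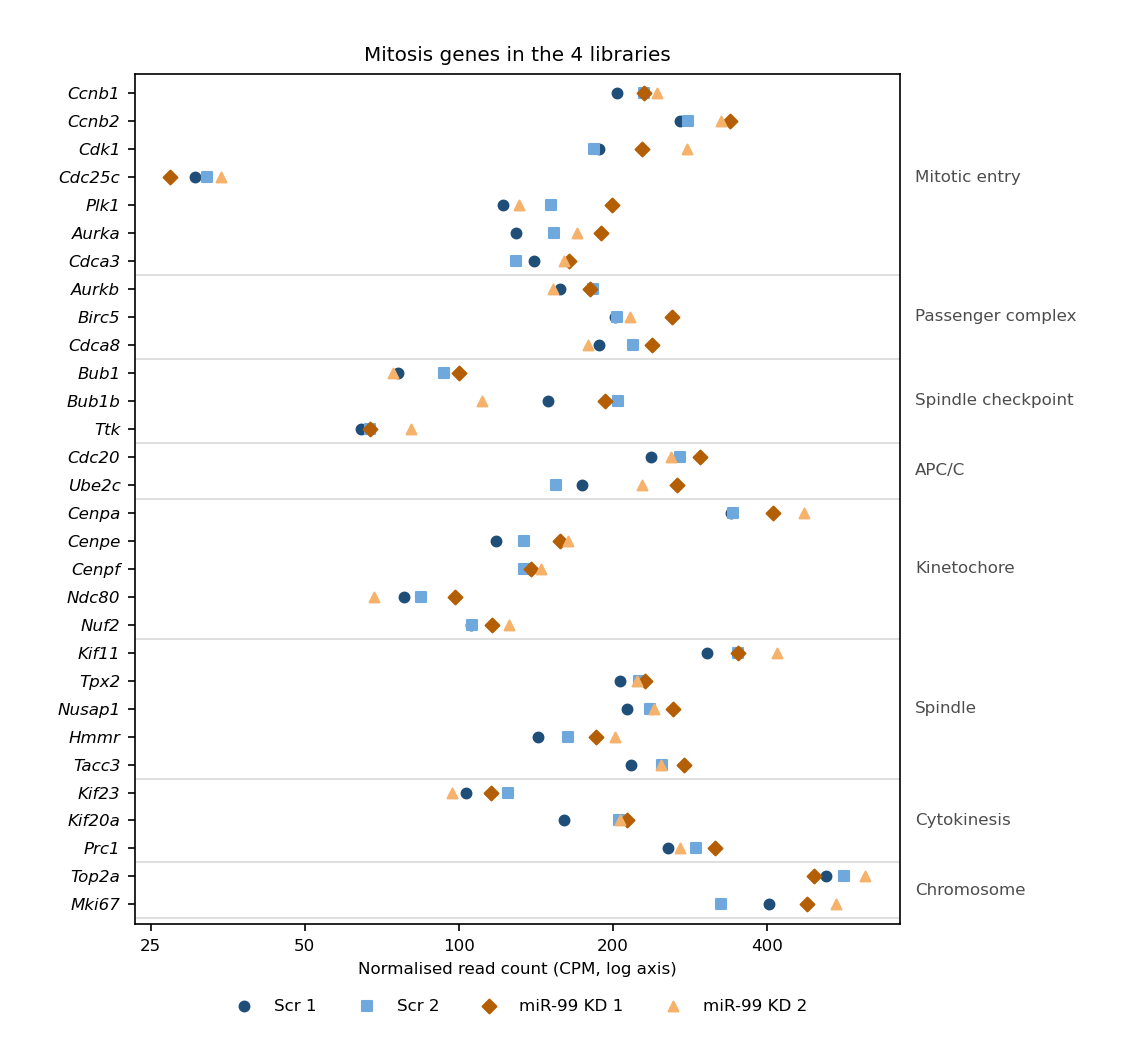
Level of the 30 mitosis genes in each library, as CPM on a log axis, with 1 symbol per library and the genes grouped by role. The Scr 1 symbol is the lowest of the 4 in 17 genes, and the highest is a miR-99 KD symbol in 27 genes with Scr 2 in the other 3.

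No mitosis gene passed the main test. It was edgeR's quasi-likelihood test over 15320 genes with Benjamini-Hochberg adjustment at 0.05, which called 0 genes, or 0%, of all tested, as did limma-voom. Their adjusted p ran from 0.227 to 0.956. The log2 difference, miR-99 KD minus Scr, had a median of 0.17 over the 30 genes against 0.016 over all genes, and was above 0 in 26 and below 0 in 4. Scaling by library totals alone gave 20 and 10. Both knockdowns lay above both controls in 14 of the 30, or 46.7%, beside 24.5% of all genes tested. They lay below in 0 of the 30, beside 26% of all genes, and the other 16 overlapped. With library totals alone 11 lay above and 0 below, beside 18.1% and 31.9% of all genes. At an unadjusted p under 0.05 edgeR counted 5 mitosis genes higher, beside 5.97% of all genes, and 0 lower, beside 9.63%. The 5 were Ube2c, Cdk1, Mki67, Cenpa and Cenpe. DESeq2, an alternative test, called 1 mitosis gene higher, Ube2c, beside 2.04% of the 12646 genes it gave an adjusted p, and 0 lower, beside 5.05%.

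The list's counts and median depended on single libraries and on the scaling. The median log2 difference was 0.054 without Scr 1, the library with the lowest summed level, 0.21 without Scr 2, and 0.082 with library totals alone, where the median of all genes also moved, to -0.071. The distance between the medians was 0.15 under both scalings and 0.028 without Scr 1. Leaving out Scr 2 or miR-99 KD 2 put 22 of the 30 genes above, beside 30.7% and 37.8% of all genes. There were 3, 6 and 2 genes below without Scr 1, miR-99 KD 1 and miR-99 KD 2, beside 36.9%, 41.3% and 38.9% of all genes, and 0 without Scr 2. The 5 genes at an unadjusted p under 0.05 became 1 with library totals alone, 2 without Scr 1 and 0 without Scr 2.

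**Figure D2:**
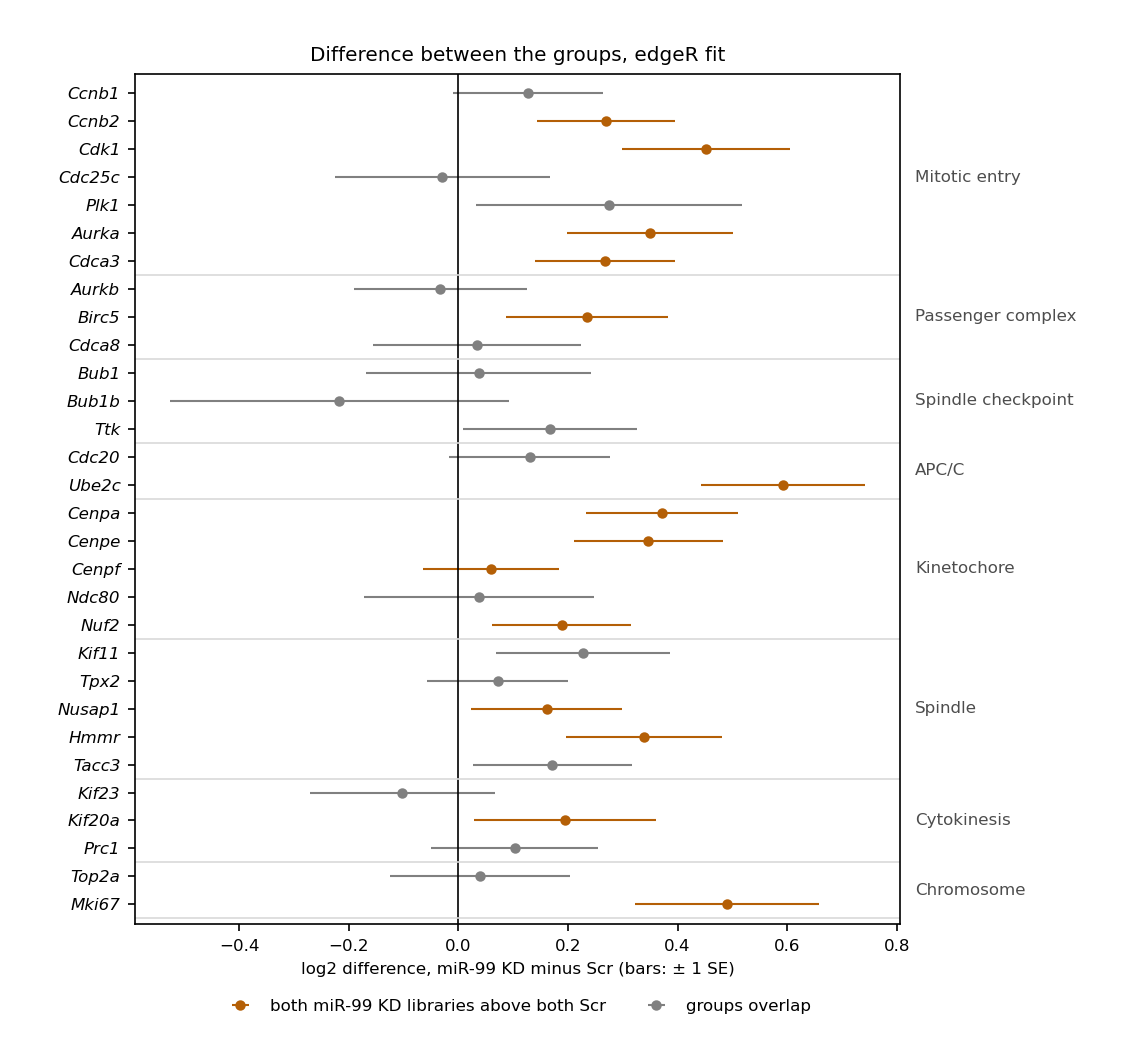
Log2 difference of each mitosis gene, miR-99 KD minus Scr, from edgeR's fit, with bars of ± 1 SE (n = 2 per group). The 14 genes whose knockdown libraries both lie above the controls are in colour, from Cenpf at 0.060 to Ube2c at 0.59, and the lowest value is that of Bub1b at -0.22.

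Upstream sequence was looked at because these genes are known to share control elements. The RefSeq promoter table (build GRCm38.p6) held 26 of the 30 genes, all but Cdc25c, Aurkb, Tpx2 and Kif20a. In the 250 bases before the annotated start, the letters CCAAT on either strand were in 21 of 26 genes, or 80.8%, beside 36.2% of 10703 tested genes in the table and 34.5% of all 27025 genes in it. A pair or more of CCAAT matches was in 15, or 57.7%, beside 13.4% of the tested genes and 10.5% of all. The CHR letters TTTGAA on either strand were in 7, or 26.9%, beside 10.9% of the tested genes and 16.3% of all. All 7, which were Ccnb2, Cdk1, Cdc20, Ube2c, Kif11, Top2a and Mki67, held CCAAT too. The 26 genes thus held both in 26.9%, beside 4.07% of the tested genes. Of the 1166 tested genes with TTTGAA, 436 held CCAAT too. Of the genes in the table, CCAAT was in 10 of the 13 whose groups did not overlap and in 11 of the 13 whose groups did, and TTTGAA in 4 of 13 and 3 of 13.

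Shown are the 200 bases up to the start of the 3 genes with the highest and the 2 with the lowest log2 difference among the 26, to set the ends of the range side by side. Capitals mark the matches, which read CCAAT or, from the other strand, ATTGG for NF-Y, and TTTGAA or, from the other strand, TTCAAA for CHR. The positions are those of GRCm38.p6, and each run reads 5′ to 3′ on the gene's strand, ending at the base before the start.
Ube2c, chr2:164769729-164769928, plus strand: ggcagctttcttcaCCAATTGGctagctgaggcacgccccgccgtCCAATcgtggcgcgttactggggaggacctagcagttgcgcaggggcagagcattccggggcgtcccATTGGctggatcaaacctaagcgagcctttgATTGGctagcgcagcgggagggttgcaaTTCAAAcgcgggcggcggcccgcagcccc
Mki67, chr7:135716380-135716579, minus strand: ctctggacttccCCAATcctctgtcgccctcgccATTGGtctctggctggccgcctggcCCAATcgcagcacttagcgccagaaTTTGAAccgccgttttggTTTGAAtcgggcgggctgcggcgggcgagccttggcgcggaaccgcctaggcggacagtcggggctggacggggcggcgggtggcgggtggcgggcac
Cdk1, chr10:69352913-69353112, minus strand: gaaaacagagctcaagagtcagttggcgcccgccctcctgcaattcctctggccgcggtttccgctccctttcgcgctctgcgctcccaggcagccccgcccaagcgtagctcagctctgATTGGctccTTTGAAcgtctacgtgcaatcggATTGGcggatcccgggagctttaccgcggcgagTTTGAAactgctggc
Bub1b, chr2:118598011-118598210, plus strand: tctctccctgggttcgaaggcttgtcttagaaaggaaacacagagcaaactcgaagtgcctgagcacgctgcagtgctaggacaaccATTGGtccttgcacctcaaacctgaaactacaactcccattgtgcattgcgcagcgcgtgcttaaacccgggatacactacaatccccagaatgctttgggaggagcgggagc
Kif23, chr9:61946800-61946999, minus strand: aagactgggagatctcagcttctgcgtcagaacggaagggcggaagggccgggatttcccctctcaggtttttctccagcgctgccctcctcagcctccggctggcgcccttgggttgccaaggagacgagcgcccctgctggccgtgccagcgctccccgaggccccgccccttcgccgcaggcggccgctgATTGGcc
The Ube2c run holds 5 CCAAT matches, of which the first 2 overlap as 1 stretch read on both strands, and 1 CHR match that begins 29 bases before the start. Mki67 holds 3 and 2, and Cdk1 holds 2 and 2 with a CHR match 15 bases before the start. Bub1b and Kif23 hold 1 CCAAT match each and no TTTGAA. The Bub1b run does hold TTCGAA, which differs from TTTGAA by 1 letter, and such variants were not searched in any gene. No match says only that these letters are not in the window, and a match is not a bound site.

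**Figure D3:**
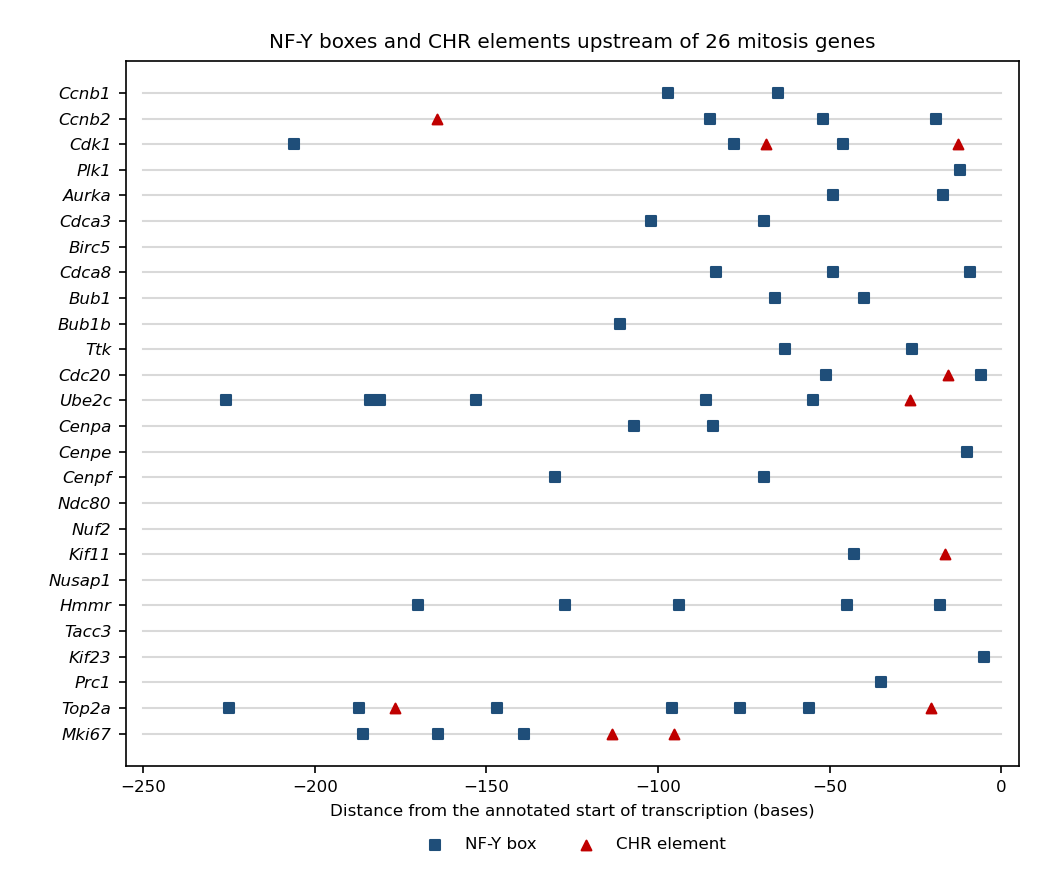
Matches to CCAAT, the NF-Y box (squares), and to TTTGAA, the CHR element (triangles), in the 26 mitosis genes of the promoter table. They lie in the 250 bases before the start and are drawn by distance from it in bases. Of the genes drawn, 21 have at least 1 square and 7 have a triangle, and Birc5, Ndc80, Nuf2, Nusap1 and Tacc3 have neither.

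Of the 7 genes of mitotic entry, 4 had both knockdown libraries above both controls, beside 24.5% of all genes, and 3 overlapped. Cdk1, the kinase that drives mitosis, stood at 188 CPM (Scr 1) and 184 CPM (Scr 2) against 229 CPM (miR-99 KD 1) and 280.1 CPM (miR-99 KD 2). Its 2 control values were nearly equal and its knockdown values were both higher, and the log2 difference was 0.45 ± 0.15 (± SE, n = 2 in each group) at an edgeR adjusted p of 0.284. The B-type cyclins that activate it differed less. Ccnb2 stood at 270.4 CPM (Scr 1) and 280.5 CPM (Scr 2) against 339 CPM (miR-99 KD 1) and 325 CPM (miR-99 KD 2), with no overlap and a log2 difference of 0.27 ± 0.13. Ccnb1 stood at 204 CPM (Scr 1) and 230.4 CPM (Scr 2) against 230.1 CPM (miR-99 KD 1) and 244 CPM (miR-99 KD 2), where Scr 2 and miR-99 KD 1 were level, and its log2 difference of 0.13 ± 0.14 was smaller than its SE. Cdc25c, the phosphatase that removes the inhibitory phosphates of Cdk1, was the lowest of the 30 at 30.6 CPM (Scr 1) and 32.2 CPM (Scr 2) against 27.2 CPM (miR-99 KD 1) and 34.3 CPM (miR-99 KD 2), and the 2 knockdown libraries were its extremes.

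The other genes of entry act beside Cdk1 or on its inhibitor. Aurka, which matures centrosomes and builds spindle poles, stood at 129 CPM (Scr 1) and 153 CPM (Scr 2) against 189.8 CPM (miR-99 KD 1) and 171 CPM (miR-99 KD 2), and its groups did not overlap, with a log2 difference of 0.35 ± 0.15. Plk1, the polo kinase of centrosomes, kinetochores and cytokinesis, stood at 122 CPM (Scr 1) and 152 CPM (Scr 2) against 199.6 CPM (miR-99 KD 1) and 131 CPM (miR-99 KD 2). The knockdown libraries gave the highest and the next to lowest value of Plk1, and they differed by -0.60 on the log2 scale as miR-99 KD 2 minus miR-99 KD 1, more than the group difference of 0.27 ± 0.24. Cdca3, which promotes entry by helping to remove the Cdk1 inhibitor Wee1, stood at 140.5 CPM (Scr 1) and 129.5 CPM (Scr 2) against 164 CPM (miR-99 KD 1) and 161 CPM (miR-99 KD 2), close within each group, with a log2 difference of 0.27 ± 0.13.

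The chromosomal passenger complex carries the kinase Aurkb to centromeres and then to the midzone of the spindle. Its 3 members here, Aurkb, Birc5 (survivin) and Cdca8 (borealin), had a median log2 difference of 0.034. Aurkb stood at 158 CPM (Scr 1) and 183 CPM (Scr 2) against 180.3 CPM (miR-99 KD 1) and 153 CPM (miR-99 KD 2), and Cdca8 at 188 CPM (Scr 1) and 219.6 CPM (Scr 2) against 239 CPM (miR-99 KD 1) and 179 CPM (miR-99 KD 2). In both genes miR-99 KD 2 was the lowest library, so the groups overlapped. Birc5 was the exception without overlap, at 202 and 204 CPM in Scr 1 and 2 against 261 and 217 CPM in knockdown 1 and 2, with a log2 difference of 0.23 ± 0.15 and miR-99 KD 1 well above the other 3 libraries.

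Of the 3 spindle checkpoint genes, 0 lay above both controls in both knockdowns and 0 below, beside 24.5% and 26% of all genes. Among them was the gene with the widest spread of the 30. Bub1b (BubR1), which inhibits the APC/C while kinetochores are unattached, stood at 149 CPM (Scr 1) and 205 CPM (Scr 2) against 194 CPM (miR-99 KD 1) and 111 CPM (miR-99 KD 2). Its log2 difference of -0.22 ± 0.31 was the lowest of the 30, but the knockdown libraries differed from each other by -0.80 and the control libraries by 0.45, so its sign turned with the library left out, from -0.68 to 0.13. Bub1, the kinase that recruits BubR1 to kinetochores, stood at 76.1 CPM (Scr 1) and 93.8 CPM (Scr 2) against 99.95 CPM (miR-99 KD 1) and 74.4 CPM (miR-99 KD 2). It followed the order of Bub1b in the lowest library but not in the highest, which was miR-99 KD 1. Ttk (Mps1), the kinase at the top of the checkpoint, stood at 64.5 CPM (Scr 1) and 67.1 CPM (Scr 2) against 67.0 CPM (miR-99 KD 1) and 80.7 CPM (miR-99 KD 2), where 3 libraries were close and miR-99 KD 2 was higher, the reverse of Bub1 and Bub1b.

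Of the APC/C genes, Ube2c had the largest log2 difference and the smallest p of the 30 genes. Ube2c, the conjugating enzyme that passes ubiquitin to APC/C substrates, stood at 174 CPM (Scr 1) and 155 CPM (Scr 2) against 268 CPM (miR-99 KD 1) and 229 CPM (miR-99 KD 2). The higher control lay below the lower knockdown library, with means of 165 ± 13.2 and 248 ± 27.5 CPM (± SD, n = 2), and the difference was 0.59 ± 0.15 on the log2 scale, or 1.51-fold. Its edgeR adjusted p was 0.227 and its DESeq2 adjusted p 0.0181. The DESeq2 call was lost on leaving out Scr 1 (0.444), Scr 2 (0.9996) or miR-99 KD 1 (0.0854), and it held without miR-99 KD 2 (0.00663), while the log2 difference stayed between 0.47 and 0.70. Exons of Ube2c share 22.8% of their bases with Tnnc2 on the opposite strand, and whether counting used strand is not given. Cdc20, the activator that selects APC/C substrates and the protein the checkpoint holds back, stood at 238 CPM (Scr 1) and 270.3 CPM (Scr 2) against 296 CPM (miR-99 KD 1) and 260.1 CPM (miR-99 KD 2), with overlapping groups and a log2 difference of 0.13 ± 0.15.

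Of the 5 kinetochore and centromere genes, 4 had both knockdowns above both controls, beside 24.5% of all genes. Cenpa, the histone H3 variant that marks centromeres, stood at 341 CPM (Scr 1) and 343 CPM (Scr 2) against 412 CPM (miR-99 KD 1) and 474 CPM (miR-99 KD 2), with near-identical controls, a log2 difference of 0.37 ± 0.14 and an edgeR adjusted p of 0.306. Cenpe, the kinesin that moves chromosomes to the spindle equator, stood at 118 CPM (Scr 1) and 134 CPM (Scr 2) against 158 CPM (miR-99 KD 1) and 164 CPM (miR-99 KD 2), with a log2 difference of 0.35 ± 0.14. Both were among the 5 at an unadjusted p under 0.05. Nuf2 and Ndc80 bind each other in the complex that grips microtubules, and their RNAs differed in opposite directions within the knockdown pair. Nuf2 stood at 106 and 106 CPM in Scr 1 and 2 against 116 and 125 CPM in knockdown 1 and 2, with no overlap. Ndc80 stood at 78.0 and 84.4 CPM in Scr 1 and 2 against 98.4 and 68.3 CPM in knockdown 1 and 2, so that 1 knockdown library was the highest and the other the lowest. Cenpf, a large kinetochore and nuclear matrix protein, stood at 138 and 134 CPM in Scr 1 and 2 against 138 and 145 CPM in knockdown 1 and 2, without overlap but with a log2 difference of 0.060 ± 0.12 that is within its SE and turned to -0.027 with library totals alone.

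Spindle genes were lowest in Scr 1 in 5 of 5. Hmmr, a microtubule-bound protein of spindle poles, stood at 143 CPM (Scr 1) and 164 CPM (Scr 2) against 186 CPM (miR-99 KD 1) and 202 CPM (miR-99 KD 2), without overlap and with a log2 difference of 0.34 ± 0.14. Kif11, the motor that pushes the poles apart, stood at 306 CPM (Scr 1) and 352 CPM (Scr 2) against 352 CPM (miR-99 KD 1) and 418 CPM (miR-99 KD 2), where Scr 2 and miR-99 KD 1 were level. Nusap1, which bundles spindle microtubules, stood at 213 and 237 CPM in Scr 1 and 2 against 262 and 241 CPM in knockdown 1 and 2, with no overlap by a narrow margin between Scr 2 and miR-99 KD 2. Tacc3, which stabilises spindle fibres, and Tpx2, which activates Aurka and seeds microtubules, both overlapped. Tacc3 stood at 217 and 249 CPM in Scr 1 and 2 against 276 and 249 CPM in knockdown 1 and 2, and Tpx2 at 207 and 225 CPM in Scr 1 and 2 against 231 and 223 CPM in knockdown 1 and 2, with log2 differences of 0.17 ± 0.14 and 0.072 ± 0.13.

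Of the 3 cytokinesis genes, 1 lay above both controls in both knockdowns and 0 lay below, beside 24.5% and 26% of all genes. Prc1, which bundles the microtubules of the midzone, stood at 257 CPM (Scr 1) and 292 CPM (Scr 2) against 318 CPM (miR-99 KD 1) and 271 CPM (miR-99 KD 2). Kif23, a motor of the midzone complex that sets the cleavage plane, stood at 103 CPM (Scr 1) and 125 CPM (Scr 2) against 116 CPM (miR-99 KD 1) and 97.1 CPM (miR-99 KD 2). Scr 2 was the highest and miR-99 KD 2 the lowest for Kif23, with a log2 difference of -0.10 ± 0.17. Kif20a, the motor that brings the passenger complex to the midzone, stood at 161 and 206 CPM in Scr 1 and 2 against 213 and 207 CPM in knockdown 1 and 2, where Scr 1 alone stood apart and Scr 2 lay just under both knockdown libraries. Its log2 difference of 0.19 ± 0.17 was -0.00089 without Scr 1, and 29.3% of its exon bases are shared with Cdc23 on the opposite strand.

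The remaining pair acts on chromosomes. Mki67 (Ki-67), which coats mitotic chromosomes and is a standard marker of cycling cells, stood at 405 CPM (Scr 1) and 325 CPM (Scr 2) against 480.5 CPM (miR-99 KD 1) and 546 CPM (miR-99 KD 2). Both knockdown libraries were above both controls, with means of 365 ± 56.3 and 513 ± 46.2 CPM (± SD, n = 2), a log2 difference of 0.49 ± 0.17, an edgeR adjusted p of 0.288 and 0.0799 by DESeq2. Top2a, the topoisomerase that untangles sister chromatids, stood at 522 CPM (Scr 1) and 566 CPM (Scr 2) against 495 CPM (miR-99 KD 1) and 624 CPM (miR-99 KD 2). The knockdown libraries were its lowest and highest values, and its log2 difference of 0.039 ± 0.16 was smaller than its SE. Mki67 was lowest in Scr 2 and Top2a in miR-99 KD 1.

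Differences between the libraries of a group were about as large as those between the groups. The former compare single libraries and the latter come from the fit of whole groups, so the measures are unlike. The median absolute log2 difference over the 30 genes was 0.18 between the control libraries, 0.22 between the knockdown libraries and 0.18 between the groups. In 11 genes the group difference exceeded both within-group differences, and it was positive in each of these 11. They were Ccnb2, Cdk1, Aurka, Cdca3, Ube2c, Cenpa, Cenpe, Nuf2, Nusap1, Hmmr and Mki67. How many of all tested genes meet this rule was not counted, so the 11 have no share to be set beside. The controls differed in a shared direction, since Scr 2 was above Scr 1 in 25 of 30 genes. The knockdown libraries did not, with miR-99 KD 2 below miR-99 KD 1 in 18 and above it in 12.

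In 16 of the 30 genes Scr 2 was above Scr 1 while miR-99 KD 2 was below miR-99 KD 1. The genes with the widest gaps of this kind were Bub1b, Plk1, Ndc80, Bub1 and Cdca8. As miR-99 KD 2 minus miR-99 KD 1 on the log2 scale, the gaps were -0.80, -0.60, -0.53, -0.43 and -0.41. The genes furthest the other way in the knockdown pair were Top2a at 0.33, Cdc25c at 0.33, Cdk1 at 0.29, Ttk at 0.27 and Kif11 at 0.25. These 2 sets were picked after their values were seen, and no test was made of them.

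**Figure D4:**
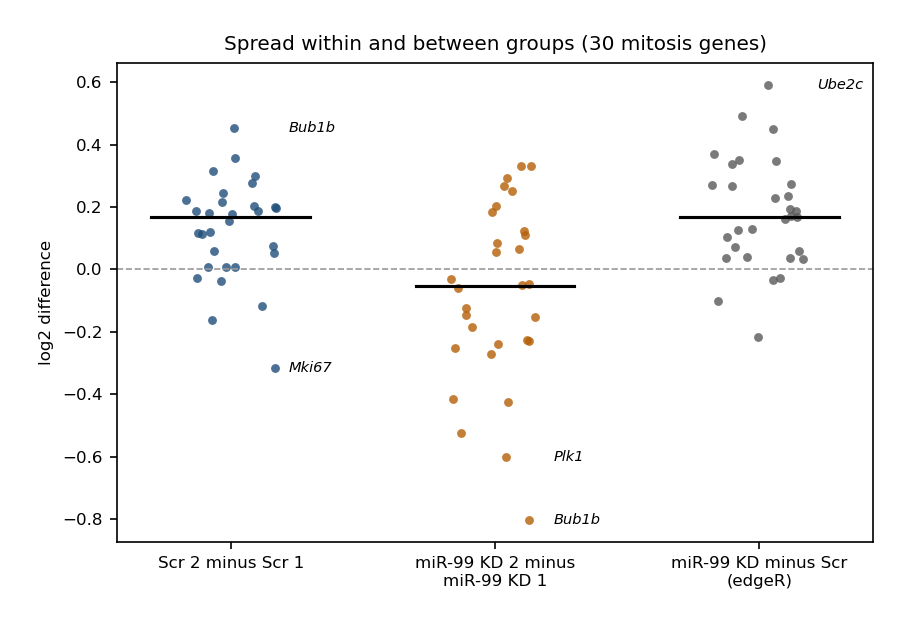
Log2 differences of the 30 mitosis genes between the Scr libraries, between the miR-99 KD libraries and between the groups, with 1 point per gene and a line at the median. The medians are 0.17, -0.055 and 0.17, and the widest points are those of Bub1b and Plk1 between the knockdown libraries.

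Per kilobase of transcript, the genes covered a range from 12.5 CPM per kilobase for Cenpf to 268 for Cenpa, as means over the 4 libraries. The highest after Cenpa were Birc5, Ube2c, Ccnb2 and Cdc20, and the lowest before Cenpf were Cdc25c, Cenpe, Ttk and Bub1. Cenpa stood at 233, 234, 281 and 323 CPM per kilobase in Scr 1, Scr 2, miR-99 KD 1 and miR-99 KD 2, and Birc5 at 214, 215, 276 and 229. Ube2c stood at 179.8, 161, 277 and 236, overlapping the range of Birc5 and that of Ccnb2, at 177, 183, 221 and 212. In this order 26 of 29 pairs of neighbours overlapped in range, all but Ccnb2 with Cdc20, Ttk with Cenpe, and Cdc25c with Cenpf. The checkpoint kinases Ttk, at 22.4, 23.4, 23.3 and 28.1, and Bub1, at 22.2, 27.4, 29.2 and 21.7, lay below the other checkpoint gene, Bub1b, in every library.

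The rest of the mitotic machinery was read from a wider list of 118 genes, of which 116 passed the filter on low counts. In 45 of the 116, or 38.8%, both knockdown libraries lay above both controls, in 11, or 9.48%, below, and 60 overlapped, beside the 24.5% and 26% of all genes. Their median log2 difference was 0.12, and edgeR called 0. DESeq2 called 2 higher, Gtse1 and Ccna2, beside 2.04% of all genes, and 1 lower, Numa1, beside 5.05%. Ccna2, the cyclin of S phase and early mitosis, stood at 427 and 379.7 CPM in Scr 1 and 2 against 536 and 653 CPM in knockdown 1 and 2, with a log2 difference of 0.56 ± 0.16 and a DESeq2 adjusted p of 0.0275. Gtse1, a microtubule-bound protein of G2 and mitosis, stood at 67.4 and 72.8 CPM in Scr 1 and 2 against 114 and 102 CPM in knockdown 1 and 2, with a DESeq2 adjusted p of 0.0130. Numa1, which anchors microtubules at spindle poles, stood at 210.4 and 241 CPM in Scr 1 and 2 against 124 and 124 CPM in knockdown 1 and 2. It had the smallest p of the wider list, with a log2 difference of -0.87 ± 0.14 and adjusted p-values of 2.6e-05 by DESeq2 and 0.197 by edgeR. Numa1 is also a nuclear matrix protein of cells that do not divide.

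Other genes of that list by the naming rule did not pass either test. Cks2, a small subunit of Cdk complexes, and Mis18a, which loads Cenpa, had log2 differences of 0.70 ± 0.20 and 0.50 ± 0.14 without overlap. The APC/C subunits Cdc16 and Anapc7 and the abscission protein Cep55 were lower without overlap, at -0.27 ± 0.12, -0.34 ± 0.18 and -0.42 ± 0.25. Of the 9 other checkpoint genes, 6 were above and 0 below, beside 24.5% and 26% of all genes. The 16 other APC/C genes had a median log2 difference of 0.013.

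Regulators of these genes numbered 17, the MuvB subunits, pocket proteins, E2F and DP factors, NF-Y subunits, Foxm1 and the Myb factors. Both knockdown libraries were above both controls in 7 of them, or 41.2%, and below in 2, or 11.8%, beside 24.5% and 26% of all genes. E2f4, the E2F partner of the pocket proteins in the repressor that holds mitosis genes low in resting cells, stood at 391 CPM (Scr 1) and 413 CPM (Scr 2) against 566 CPM (miR-99 KD 1) and 591 CPM (miR-99 KD 2), with a log2 difference of 0.53 ± 0.13 and a DESeq2 adjusted p of 0.00595. Tfdp1, its dimer partner, stood at 252 and 253 CPM in Scr 1 and 2 against 337 and 346 CPM in knockdown 1 and 2, with a DESeq2 adjusted p of 0.0282. Neither passed edgeR, at adjusted p of 0.227 and 0.247. Rbl2 (p130), the pocket protein of that repressor, stood at 139 and 149 CPM in Scr 1 and 2 against 128 and 99.8 CPM in knockdown 1 and 2, and E2f7, an atypical E2F repressor, at 36.3 and 38.8 CPM in Scr 1 and 2 against 33.1 and 23.1 CPM in knockdown 1 and 2, both lower without overlap at log2 differences of -0.34 ± 0.17 and -0.42 ± 0.23. The other atypical E2F, E2f8, went the other way without overlap, and neither test called it. It stood at 136 and 139 CPM in Scr 1 and 2 against 175 and 172 CPM in knockdown 1 and 2. Its log2 difference was 0.33 ± 0.12. Of the activators, Foxm1 overlapped at 70.3 and 81.7 CPM in Scr 1 and 2 against 99 and 80.8 CPM in knockdown 1 and 2, and so did Mybl2 at 78.9 and 99.2 CPM in Scr 1 and 2 against 97.8 and 99.03 CPM in knockdown 1 and 2. Myb and the NF-Y subunits Nfya, Nfyb and Nfyc lay above both controls in both knockdowns, with log2 differences of 0.21 ± 0.16, 0.56 ± 0.30, 0.20 ± 0.13 and 0.19 ± 0.16. Neither test called any of these 6.

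S phase precedes mitosis in the same cells. Of 30 replication genes, 13, or 43.3%, had both knockdown libraries above both controls and 2, or 6.67%, below, beside 24.5% and 26% of all genes. Their median log2 difference was 0.16, and DESeq2 called 3 higher, beside 2.04% of all genes. Within the knockdown pair the lists differed in which library was highest, since miR-99 KD 2 was the highest in 19 of 30 S phase genes and in 12 of 30 mitosis genes. This difference was not tested. Of 15 genes of quiescence, among them the Cdk inhibitors, 1 was above and 7, or 46.7%, below, beside 24.5% and 26% of all genes, with a median of -0.34. DESeq2 called 4 of these lower, beside 5.05% of all genes.

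**Figure D5:**
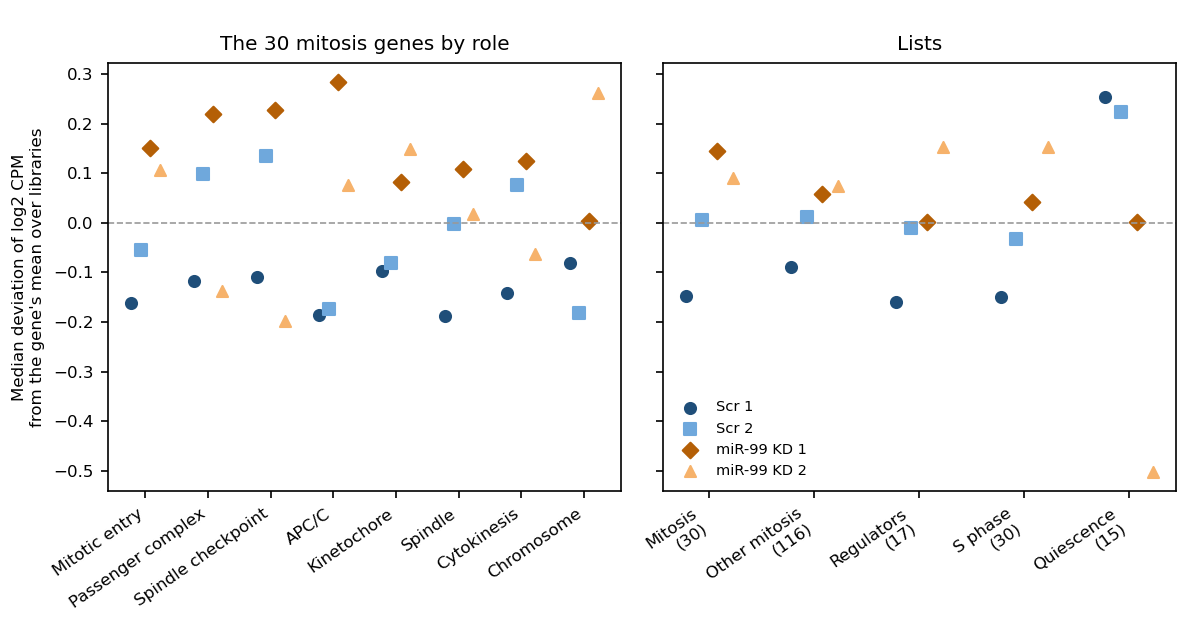
Median over genes of log2 CPM minus the gene's mean over the 4 libraries, for the roles within the 30 mitosis genes (left) and for whole lists (right, number of genes in brackets), with 1 symbol per library. The mitosis list stands at -0.15 (Scr 1), 0.0054 (Scr 2), 0.15 (miR-99 KD 1) and 0.090 (miR-99 KD 2), and miR-99 KD 2 is the lowest library for the passenger and checkpoint roles.

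Cell type markers differed between the groups and between libraries too. The summed level of 10 LSK markers was 2810.0 CPM (Scr 1), 3301 CPM (Scr 2), 1444 CPM (miR-99 KD 1) and 1512 CPM (miR-99 KD 2), and 0 of the 10 was at 0 counts in any library. That of 10 erythroid markers was 6381 CPM (Scr 1), 5554 CPM (Scr 2), 8758 CPM (miR-99 KD 1) and 8718 CPM (miR-99 KD 2). Of the LSK markers 8 of 10 were below both controls in both knockdowns, beside 26% of all genes, and of the erythroid markers 6 of 10 were above, beside 24.5%. The 10 neutrophil markers summed to 8224 CPM (Scr 1), 6150.4 CPM (Scr 2), 28969.9 CPM (miR-99 KD 1) and 5255 CPM (miR-99 KD 2), and the 10 B cell markers to 82.7 CPM (Scr 1), 41.8 CPM (Scr 2), 304 CPM (miR-99 KD 1) and 91.5 CPM (miR-99 KD 2). Both knockdowns were above both controls in 6 of the 10 B cell markers and in 0 of the 10 neutrophil markers. All 10 of each were highest in miR-99 KD 1, which was also the highest library in 15 of the 30 mitosis genes. Macrophage markers summed to 107 to 265 CPM, mast cell and basophil markers to 40.3 to 143, and T cell markers, of which 2 of 6 passed the filter, to 11.5 to 33.8. Up to 3 mast cell and basophil markers and up to 3 T cell markers were at 0 counts in a library. The part of these cells in the mitosis values was not tested. Without miR-99 KD 1, the median log2 difference of the mitosis genes was 0.15, with 18 genes above and 6 below, beside 39.7% and 41.3% of all genes. With that library left out DESeq2 called 1547 genes of all, against 896 with it, and among them Cdk1, Cenpa and Mki67 were higher and Bub1b lower, the last at a log2 difference of -0.68 in edgeR's fit.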

How the data were processed

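Total RNA came from sorted cells lysed in Trizol LS and was amplified with SMARTer, per the labels' protocols. The files the authors deposited hold unnormalised counts of reads for each Ensembl gene, 1 file for each mouse. STAR, Picard, HTSeq and DESeq2 and the build mm9 are named per the submitters' processing notes; for versions, annotation, strand setting and PCR copies the sources used here name nothing. Rows naming no gene, 36.9% to 42.5% of reads, were left out. HTSeq sets aside reads with several alignments or genes, so near-identical copies lower a count: pseudogenes named after Ccnb1 and Ccnb2 exist, and 10 of the 30 genes share exon bases with another gene. Symbols (44585 of 45232 rows), lengths (longest principal transcript) and 3′ ends came from GENCODE M21, on a later build, so no coordinates of counts are printed.

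All 15320 genes kept by filterByExpr were fitted with edgeR 4.0.16 (quasi-likelihood, TMM, R 4.3.3); SEs are the log2 difference over the root of F. DESeq2 1.42.0, limma-voom 3.58.1, RLE scaling, library totals, no filter, a filter of 10 CPM in 2 libraries, a replicate block and leaving out each library were alternatives. DESeq2 gave 2674 genes no adjusted p. The tests were tried on simulated data. p-values set the group difference against the spread between 2 mice per group, which the fits estimate for each gene partly from all genes.

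The genes and lists were chosen with earlier results of these data known. All 30 genes are described. Of the wider mitosis list and regulators, the rule names the 6 in each direction with the smallest edgeR p among those without overlap and any called by either test. E2f8, Foxm1, Mybl2, Myb and the NF-Y subunits are named outside it, after their values were seen. Names pasted at the end of 3 files carry the other replicate number, so numbers serve as names only.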

Additional observations from a re-analysis of the deposited data

How the results depend on the processing

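The counting error of a mitosis gene was at most 3.73%, and no other depth was tried. Where a setting does not itself remove a library or genes, the cause of its effect was not tested. A group left with 1 library was assumed to vary like the other. edgeR called 0 genes of all tested over 4 libraries, 0 with limma-voom and the other scalings, 1064 with no filter, and 0 to 1013 on leaving out each library, where the 1013 came without miR-99 KD 1 and 437 came without miR-99 KD 2. DESeq2 called 896, or 391 with the replicate block. Among the 30 mitosis genes the count was 0 in each edgeR and limma-voom setting and 1 with DESeq2. That DESeq2 count was 0 with the replicate block, where the adjusted p of Ube2c was 0.148, and 0 to 4 without each library. It was 0 without Scr 1, 0 without Scr 2, 4 without the first knockdown library and 1 without the other, where DESeq2 called 129, 27, 1547 and 840 genes of all. The 14 genes above were 12 to 22 without each library, and the 0 below were 0 to 6. The 5 at an unadjusted p under 0.05 were 1 with library totals, 3 without a filter, 3 with the replicate block and 0 to 6 without each library. The median of 0.17 was 0.082 with library totals and 0.054 to 0.23 without each library, 0.054 without Scr 1. That of the other mitosis genes, 0.12, was 0.031 and 0.028 in the same settings, and 0.028 to 0.14 without each library. No pairing was drawn from the replicate numbers, since there are 2 pairs and the deviations of same-numbered libraries correlated at 0.111, and the block changed no other count by over 1.5 times.

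The log2 differences of these genes changed sign. With library totals the log2 difference was -0.053 for Cdca8, -0.050 for Bub1, -0.027 for Cenpf, -0.050 for Ndc80, -0.015 for Tpx2 and -0.047 for Top2a. Without each library it ran from -0.20 to 0.12 for Cdc25c, -0.060 to 0.55 for Plk1, -0.16 to 0.084 for Aurkb, -0.19 to 0.23 for Cdca8, -0.19 to 0.24 for Bub1, -0.68 to 0.13 for Bub1b, -0.25 to 0.28 for Ndc80, -0.014 to 0.12 for Tpx2, -0.26 to 0.029 for Kif23, -0.00089 to 0.37 for Kif20a, -0.018 to 0.21 for Prc1 and -0.13 to 0.19 for Top2a.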
